A study of Danio rerio with 21 samples.

Results

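Blood cells of the adult kidney marrow that carried an early label were compared with those that carried a late label. All 53894 cells came from adult zebrafish (Danio rerio) of 4 months, 28900 of them with the label given at 1 day post fertilization (dpf; early) and 24994 with the label given at 3 dpf (late). They were chosen by library, as every barcode of the 2 kidney marrow libraries that had 500 or more UMIs (unique molecular identifiers, each standing for 1 captured RNA molecule), 200 or more genes and no more than 20% of UMIs from mitochondrial genes. They made up 53894 of the 200415 cells of the 21 libraries of the series that passed the same filter. The question was which blood types the cells of either label made up in adult marrow, and whether they expressed the same genes. How much of the marrow either label contributed cannot be read from sorted cells.

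In zebrafish the kidney marrow is the blood-forming organ of the adult, the counterpart of mammalian bone marrow. It holds haematopoietic stem and progenitor cells (HSPCs) together with maturing red cells, neutrophils, macrophages and lymphocytes, all of which descend from HSPCs. HSPCs arise in the embryo from blood vessel endothelium and later seed the marrow, and a heritable label given to them in the embryo is passed on to every blood cell they later make.

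In both groups HSPCs had been given a heritable mCherry label in the embryo, and the mCherry-positive cells were sorted by flow cytometry from adult marrow released by gentle trituration. Libraries were made with version 4 of the Chromium kit for 3' ends. The labels describe the sorted cells as hematopoietic and immune cells and do not state how many fish were pooled, which promoter drove the label or what share of the marrow it marked. Each label had 1 library of the kidney marrow, so that the label, the fish and the run cannot be told apart, and no test between the labels was possible. Intervals below are exact 95% intervals, Poisson for UMI sums and Clopper-Pearson for shares of cells, and they cover counting error only.

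After filtering, the early library held 140483497 UMIs and the late library 140744234 UMIs. The early cells were shallower, with a median of 1886 UMIs and 808 genes per cell, against 2954.5 UMIs and 1093 genes in late cells. The libraries shared 203 cell barcodes, 0.812% of the smaller one. Messenger RNA of the label itself was present in both, with 140 CPM (counts of UMIs per 1000000 UMIs) of mCherry in early cells and 182 CPM in late cells, a log2 ratio of -0.36.

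Cells were assigned to blood types by marker gates. A cell passed a gate when it had UMIs of at least 2 different gate genes and these made up a minimum share of its UMIs, and only cells that passed exactly 1 gate were used for a type. Of the check genes that had no part in the gating, the list for each of erythroid cells, neutrophils, macrophages, NK/ILC cells (natural killer and innate lymphoid cells), B cells and thrombocytes was highest, in both libraries, in the gate of its own type. Erythroid check genes, among them the globins hbaa1 and hbba1, summed to 396091 CPM in early and 374622 CPM in late erythroid cells. Macrophage check genes summed to 3731 CPM in early and 2392 CPM in late macrophages, against at most 409 CPM in any other early type and 303 CPM in any other late type.

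For HSPCs and T cells the check genes went against the gates in part. The HSPC check list (runx1, lmo2, tal1, hlfa, kita and spi2) summed to 266 CPM in early and 230 CPM in late HSPC-gated cells, below the 736 CPM of early and 737 CPM of late thrombocyte-gated cells. Cells that passed both of those gates, 229 in the early library and 133 in the late one, were left out of both. In the early library it was also higher in B-gated cells, at 277 CPM. The leading genes of HSPC-gated cells in both libraries included nanos1, npm1a, hmgb3a and msi2a, with stmn1a and hells among the top 10 in early cells only and cdk6, csf1rb, cpm and h2ax1 in late cells only. The T check list was highest in B-gated cells through ccr9a, a chemokine receptor gene with 2709.8 CPM in early and 2469.8 CPM in late B-gated cells. Of its other members, chosen here after their values were seen, lck (a kinase of the T-cell receptor) had 111 CPM in early and 134 CPM in late T-gated cells, against 2.88 CPM in early and 0.882 CPM in late B-gated cells. The names below therefore stand for gates.

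Marker lists of cells that are not blood were low. Nephron markers summed to 16.0 CPM in early and 23.1 CPM in late cells, endothelial markers to 12.7 CPM in early and 16.2 CPM in late cells, and stromal markers to 14.6 CPM in early and 10.4 CPM in late cells. Markers of ciliated cells summed to 1.63 CPM in early and 1.37 CPM in late cells. Among blood cells with no gate of their own, dendritic markers summed to 37.2 CPM in early and 39.7 CPM in late cells. The mast cell and eosinophil list summed to 707 CPM in early and 945 CPM in late cells, nearly all of it the carboxypeptidase gene cpa5, and was highest in neutrophil-gated cells.

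The early library held a larger share of HSPC-gated cells, macrophages, NK/ILC cells and B cells, and a smaller share of erythroid cells. HSPC-gated cells made up 6.48% (6.20% to 6.77%) of early cells and 3.50% (3.28% to 3.74%) of late cells. Macrophages made up 5.38% of early and 2.84% of late cells, a difference of 2.54 percentage points (2.205 to 2.87). NK/ILC cells made up 1.18% of early and 0.596% of late cells, a difference of 0.580 points (0.421 to 0.740). B cells made up 4.51% of early and 3.24% of late cells, a difference of 1.26 points (0.937 to 1.59).

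Erythroid cells ran the other way. They were 2613 of the early cells, or 9.04%, and 4246 of the late cells, or 16.99%. Neutrophils were more than any other type in both libraries, at 54.4% of early and 54.8% of late cells, and the interval of their difference, -1.25 to 0.442 points, included 0. So did that of the rarest types: T cells stood at 0.388% of early and 0.404% of late cells, and thrombocytes at 0.194% of early and 0.180% of late cells.

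**Figure D1:**
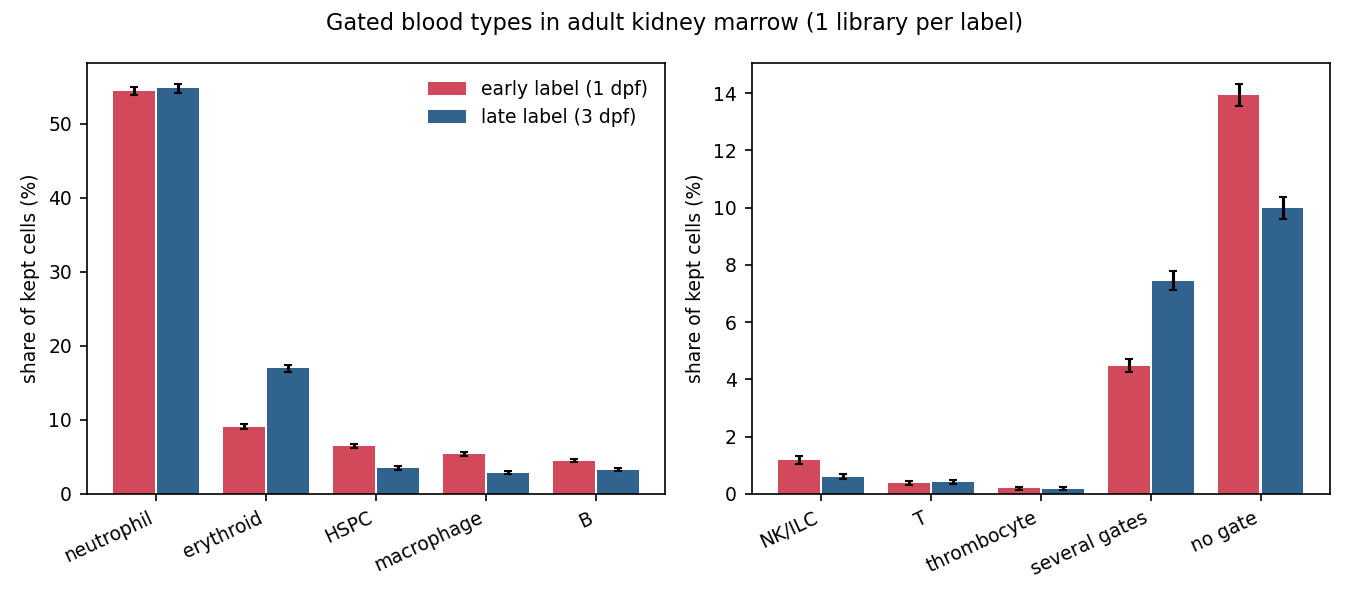
Share of cells in each marker gate, in percent of all cells of the library on the vertical axis, for the early and the late label. Bars are 95% Clopper-Pearson intervals, which cover counting error only. HSPC-gated cells stand at 6.48% (early) and 3.50% (late) and erythroid cells at 9.04% (early) and 16.99% (late).

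Gates that need rare transcripts read depth, and the early cells were shallower. When each cell was thinned to 1000 UMIs, leaving out 5186 early and 4631 late cells with fewer, HSPC-gated cells made up 1.303% of early and 0.918% of late cells, and macrophages 2.45% of early and 1.1% of late cells. Erythroid cells made up 10.9% of the thinned early and 21.3% of the thinned late cells. NK/ILC cells made up 1.15% of thinned early and 0.511% of thinned late cells. The direction of each of these 4 differences was the same with and without thinning, but that of HSPC-gated cells was 0.385 points after it, against 2.98 points before. The B-cell difference did not keep its direction under a stricter gate: with 3 different gate genes required it was -0.141 points.

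Cells outside a single gate were 13.9% (no gate) and 4.48% (several gates) of the early cells, and 9.97% (no gate) and 7.44% (several gates) of the late cells. Cells that passed both the erythroid and the neutrophil gate were 341 in the early library and 1119 in the late one. Cells in no gate held 18.9% of early and 11.6% of late UMIs. Their leading genes included spink2.2, spink2.4 and spink2.5, named for serine protease inhibitors of the Kazal type, and they were given no cell type.

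Globin RNA, which codes for the protein chains of haemoglobin, took 11.3% of all UMIs in the early library and 22.3% in the late library. Within erythroid cells the shares of summed UMIs were close, 51.0% in early and 54.3% in late cells. The median share per erythroid cell ran the other way, at 70.8% in early and 64.3% in late cells. Outside erythroid cells the shares were not close. In each of the other 6 types compared, globins took 0.254% to 0.367% of summed UMIs in early cells and 2.61% to 2.88% in late cells. HSPC-gated cells had a median of 0.207% per early cell (10th to 90th percentile 0.150% to 0.281%) and 2.42% per late cell (2.19% to 2.74%). Late neutrophils spread more widely, with a median of 2.82% per cell (2.28% to 4.47%), against 0.282% per early neutrophil (0.111% to 0.604%).

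**Figure D2:**
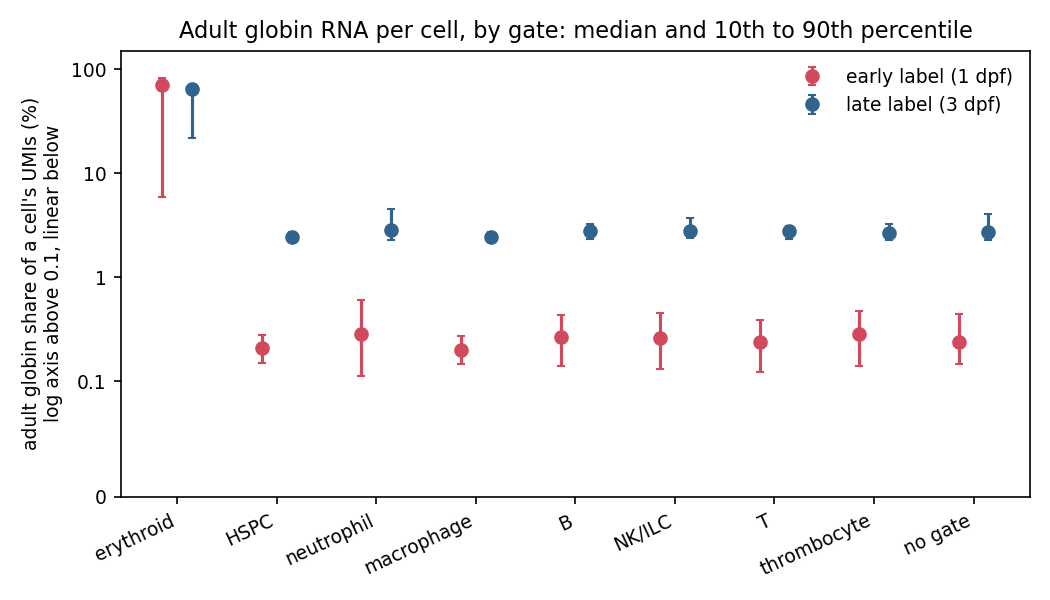
Median globin share of a cell's UMIs, in percent, per gated type and in cells in no gate, for the early and the late label. The vertical axis is logarithmic except at its lower end. Bars run from the 10th to the 90th percentile of cells. Medians stand at 0.207% (early) and 2.42% (late) in HSPC-gated cells, and at 70.8% (early) and 64.3% (late) in erythroid cells.

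The mixture of globin genes also differed. The globin si:ch211-5k11.8, which RefSeq lists with the synonym hbaa1.2 (an alpha chain by that name), had 52230.5 CPM in early and 111119 CPM in late erythroid cells, a log2 ratio of -1.09. It made up 10.2% of the globin UMIs of early and 20.5% of those of late erythroid cells. Its partner hbaa1, an adult alpha chain, made up 36.5% of the globin UMIs of early and 25.8% of those of late erythroid cells, and had a log2 ratio of 0.41. The adult beta chain hbba2 had 42466 CPM in early and 43601 CPM in late erythroid cells, a log2 ratio of -0.04. In the other 6 types si:ch211-5k11.8 made up 12.8% to 14.2% of early and 21.3% to 22.4% of late globin UMIs, each above the share in erythroid cells of the same library, and hbaa1 33.29% to 36.5% of early and 25.5% to 27.2% of late globin UMIs. The alpha chains are close copies of each other, and how reads were divided between them is uncertain.

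Genes of the haem and red cell programme, which holds enzymes of haem synthesis and structural genes of the red cell, were lower in early white cells as well. Of 18 tested in neutrophils 1 was at least 2-fold higher and 10 lower, with a median of -1.14. Of all genes tested there 1.33% were higher and 1.06% lower, with a median of -0.02. Of 15 tested in macrophages 0 were higher and 9 lower, with a median of -1.16, beside 0.699% higher and 1.1% lower of all genes and a median of -0.02. In HSPC-gated cells the difference was smaller. There 0 of 18 were higher and 3 lower, with a median of -0.23, beside 1.29% lower of all genes and a median of -0.05. The part of free RNA in these and the other differences was not tested.

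Over all cells, 78 of 15474 genes tested (those with at least 50 UMIs in the higher library) were at least 2-fold higher with the early label, or 0.504%, and 85 at least 2-fold lower, or 0.549%, together 1.05%. Folds are ratios of CPM + 5, which understates the change of low genes. The median log2 ratio over all tested genes was 0.02. Of the 78 higher genes, 21 had their highest level in HSPC-gated cells, 20 in neutrophils, 16 in macrophages and 13 in NK/ILC cells. Of the 85 lower genes, 40 had their highest level in erythroid cells and 22 in neutrophils. The same split over all 15474 genes tested was not made, so that these counts have no background beside them.

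Differences over all cells mixed the level within a type with the share of that type. Of the 74 higher genes that could be tested within neutrophils, 34 were also at least 2-fold higher there, and within macrophages it was 26 of 71. Of the 85 lower genes tested within erythroid cells, 60 were at least 2-fold lower there too.

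**Figure D3:**
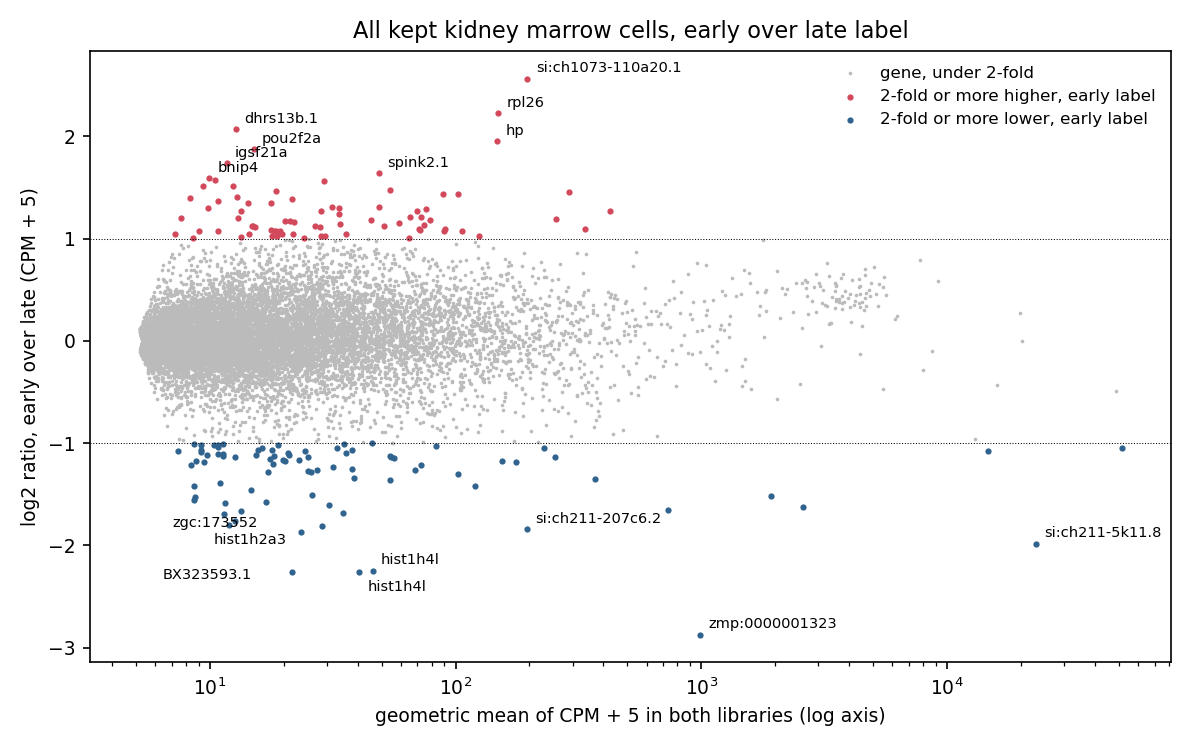
Log2 ratio of early over late CPM + 5 for every gene tested over all cells, on the vertical axis, against its mean CPM on a logarithmic horizontal axis. Named genes are marked, with rpl26 at 2.23 and zmp:0000001323 at -2.87, and the 2-fold lines stand at 1 and -1.

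Among the genes furthest apart over all cells, copies of one family stood at both ends. The feature si:ch1073-110a20.1, named mfap4.11 in the table of gene names, had 472 CPM in early and 75.6 CPM in late cells, a log2 ratio of 2.56. The feature zmp:0000001323, named mfap4.6 there, had 360 CPM in early and 2669 CPM in late cells, a log2 ratio of -2.87. Another copy of the family, mfap4, served as a macrophage gate gene and marks macrophages in zebrafish. The share of cells with a UMI of si:ch1073-110a20.1 was nearly the same, 9.25% of early and 9.41% of late cells, whereas zmp:0000001323 was found in 8.06% of early and 70.25% of late cells.

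The 15 features of the mfap4 family together summed to 1863 CPM in early and 4109 CPM in late cells, a log2 ratio of -1.14. Of the 10 tested, 1 was at least 2-fold higher and 2 at least 2-fold lower with the early label. Both of the copies named above were highest in cells in no gate. There si:ch1073-110a20.1 had 2242 CPM in early and 496 CPM in late cells, and zmp:0000001323 had 1697 CPM in early and 18219 CPM in late cells. In the 7 types of the late library zmp:0000001323 stood below that late level, between 354 and 731 CPM. Copies of this family are close in sequence, and how reads were divided among them is uncertain.

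Within HSPC-gated cells, 40 of 10232 genes tested were at least 2-fold higher with the early label (0.391%) and 132 lower (1.29%), together 1.68%. When libraries were scaled by the median ratio over genes in place of total UMIs, the split was 62 higher and 100 lower. The gene igsf21a, named for the immunoglobulin superfamily of surface proteins, had 777 UMIs in early and 12 in late HSPC-gated cells, or 34.1 CPM (31.8 to 36.6) in early and 1.06 CPM (0.548 to 1.85) in late cells. A UMI of it was present in 24.9% of the early and 1.03% of the late cells, at median depths of 11001 UMIs in early and 11706 UMIs in late cells. In erythroid cells, with median depths of 10030 UMIs in early and 11570.5 UMIs in late cells, 5.43% of early and 0.754% of late cells held a UMI of it. Its log2 ratio was 2.69 in HSPC-gated cells, 1.38 in macrophages, 1.31 in erythroid cells and 1.04 in neutrophils. In cells in no gate it was 1.61.

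The feature CR927050.2, which the files do not annotate, had 34.9 CPM in early and 2.12 CPM in late HSPC-gated cells, a log2 ratio of 2.49. UMIs of it were in 28.2% of early and 2.74% of late HSPC-gated cells, and in 0.995% of early and 0.919% of late erythroid cells. It was also past 2-fold in B cells, with 77 UMIs in early and 7 in late cells and a log2 ratio of 1.83, and had 1.93 in cells in no gate. In macrophages its log2 ratio was 0.36, in neutrophils -0.05 and in erythroid cells, where it had fewer than 50 UMIs in each library, 0.08.

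Heat-shock and immediate-early genes, which cells switch on soon after handling, heat or other stimuli, stood on opposite sides in HSPC-gated cells. The chaperone hsp70.3 had 34.03 CPM in early and 6.63 CPM in late cells, a log2 ratio of 1.75, and hsp70.2 had 32.8 CPM in early and 7.87 CPM in late cells, a log2 ratio of 1.55. The hsp70 genes were found in few cells, hsp70.3 in 5.66% of early and 2.51% of late HSPC-gated cells. On the other side, ier2a had 79.3 CPM in early and 252 CPM in late cells, a log2 ratio of -1.61. The transcription factor gene fosab, part of the AP-1 complex, had 406 CPM in early and 933 CPM in late cells, a log2 ratio of -1.19. Of the 29 genes tested on the list of both kinds, 3 were at least 2-fold higher and 8 lower, with a median of -0.64 against -0.05 over all genes tested in these cells. Over all those genes 0.391% were higher and 1.29% lower. Neutrophil genes were also lower there: of 16 granule and migration genes tested in HSPC-gated cells, 0 were at least 2-fold higher and 3 lower, with a median of -0.70, and the neutrophil check genes summed to 5618 CPM in early and 9011 CPM in late cells. Their part in the result was not tested.

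The list of stem and progenitor genes, such as tal1 and lmo2, held no gene at 2-fold in either direction among 12 tested in HSPC-gated cells, with a median of -0.11. Its highest member was tal1, a transcription factor gene needed for blood formation, at 0.59, and its lowest was cebpb, a myeloid transcription factor gene, at -0.91. Of the 26 cell cycle genes tested, only 1 feature named rrm2 (ENSDARG00000078069), a subunit of the enzyme that makes DNA building blocks, was at least 2-fold higher, with 84.1 CPM in early and 20.5 CPM in late HSPC-gated cells and a log2 ratio of 1.80. A second feature with the same symbol (ENSDARG00000020711) had 40.9 CPM in early and 41.1 CPM in late cells. That pattern recurred in macrophages, where ENSDARG00000078069 had a log2 ratio of 1.896 and ENSDARG00000020711 one of 0.30, and in erythroid cells, with 1.16 and -0.29 for these features. The 2 features carry 1 symbol, and reads may have been divided between them.

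Within erythroid cells, which make haemoglobin and lose most other transcripts as they mature, 28 of 10849 genes tested were at least 2-fold higher with the early label (0.258%) and 360 lower (3.32%), together 3.58%. The median of all tested genes lay at -0.13, and the split was 61 higher and 208 lower when libraries were scaled by median ratio. Higher with the early label were bnip4, a member of the BNIP3 family of mitochondrial proteins, and ucp3, a carrier of the inner mitochondrial membrane. The gene bnip4 had 27.2 CPM (25.3 to 29.1) in early and 0.512 CPM (0.334 to 0.750) in late erythroid cells, and was found in 23.9% of early and 0.612% of late cells. In neutrophils, a type with other functions and fewer UMIs, 1.48% of early and 0.117% of late cells held a UMI of bnip4. Its log2 ratio was 2.54 in erythroid cells, and also past 2-fold at 1.26 in neutrophils, 1.15 in HSPC-gated cells and 1.06 in macrophages. The gene ucp3 had 119 CPM in early and 29.3 CPM in late erythroid cells, a log2 ratio of 1.85, and was found in 59.0% of early and 25.8% of late cells. In macrophages, 1.03% of early and 2.95% of late cells held a UMI of ucp3.

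The haem and red cell programme had no gene at 2-fold in erythroid cells among the 11 tested that were not gate genes. Its median was -0.21, against -0.13 over all genes. Its highest member, klf17, a transcription factor gene of erythroid cells in zebrafish, had 152 CPM in early and 81.7 CPM in late cells, a log2 ratio of 0.86. Of 13 stem and progenitor genes tested in erythroid cells, 0 were at least 2-fold higher and 5 lower, with a median of -0.41. Of all genes tested there 3.32% were lower, with a median of -0.13. The highest on the list was the transcription factor gene myb at 0.96, and the lowest was cebpa at -1.82. The list also holds myeloid genes such as cebpb. The spread of globin RNA per cell was also wider among early erythroid cells, with a 10th percentile of 5.84% and a 90th percentile of 81.5%, against 21.8% and 70.12% among late cells.

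Embryonic and larval globins, which are normally replaced by adult chains, were low in erythroid cells. The feature hbae1.3 (ENSDARG00000088330) had 9.90 CPM in early and 2.07 CPM in late cells, a log2 ratio of 1.08. Of the 7 tested, 6 had ratios above 0, with a median of 0.37 against -0.13 over all genes. The exception, hbbe1.1, had 2.23 CPM in early and 9.59 CPM in late erythroid cells, a log2 ratio of -1.01.

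Neutrophil genes were lower in early erythroid cells. Of the 16 neutrophil granule and migration genes tested there, 13 were at least 2-fold lower, with a median of -1.20. Over all genes tested in these cells 3.32% were lower, with a median of -0.13. Lysozyme (lyz), an abundant neutrophil enzyme, had 3020.2 CPM in early and 6826 CPM in late erythroid cells, a log2 ratio of -1.18. The oxidase subunit gene cybb had 4.64 CPM in early and 34.6 CPM in late erythroid cells, and the cytokine gene il1b, 1 of 3 inflammatory genes of 11 tested that were at least 2-fold lower, had 32.6 CPM in early and 109 CPM in late erythroid cells. Interferon-stimulated genes had 0 of 13 at 2-fold there, and MHC class I and processing genes 0 of 17. The share of erythroid cells that also passed the neutrophil gate was larger in the late library, as given above, and those cells had been left out. With the cells of highest doublet scores left out as well, 624 genes were past 2-fold in place of 388. The part of mixed barcodes and free RNA in these differences was not tested.

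Within neutrophils, short-lived granule-bearing cells of bacterial defence, 157 of 11776 genes tested were at least 2-fold higher with the early label (1.33%) and 125 lower (1.06%), together 2.39%. The genes furthest apart on the high side were each found in a minority of the cells. The gene dhrs13b.1, named for the short-chain dehydrogenase/reductase family, had 72.1 CPM (69.1 to 75.1) in early and 3.00 CPM (2.48 to 3.60) in late neutrophils, a log2 ratio of 3.27. It was found in 12.0% of early and 0.839% of late neutrophils, at median depths of 1251 UMIs in early and 1791 UMIs in late cells. In the deeper erythroid cells it was found in 3.90% of early and 0.518% of late cells. Its log2 ratio was 0.90 in macrophages, 0.88 in HSPC-gated cells and 0.70 in erythroid cells.

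The transcription factor gene pou2f2a, whose mammalian counterpart is best known from B cells, had 68.5 CPM in early and 5.84 CPM in late neutrophils, a log2 ratio of 2.76. It was found in 10.7% of early and 1.47% of late neutrophils, and in 1.23% of early and 0.617% of late B cells. Its log2 ratio was 1.38 in macrophages, 0.94 in HSPC-gated cells, 0.41 in erythroid cells and 1.62 in cells in no gate. The feature si:ch1073-67j19.1, named teni.1 in the table of gene names, had 326 CPM in early and 32.1 CPM in late neutrophils, a log2 ratio of 3.16. Its log2 ratio was 1.03 in macrophages, 0.46 in erythroid cells and 0.11 in HSPC-gated cells. In cells in no gate it had 408 CPM in early and 348 CPM in late cells, a log2 ratio of 0.23. Both levels were above those in neutrophils of the same library.

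The inflammatory, B-cell development and T cell lists each had 1 gene at least 2-fold higher and 0 lower in early neutrophils. The cytokine gene tnfb, with 70.7 CPM in early and 20.7 CPM in late neutrophils and a log2 ratio of 1.56, was 1 of 12 inflammatory genes tested, whose median was -0.06. The lymphoid genes cd22 (15.2 CPM in early and 1.64 CPM in late neutrophils) and lck (8.38 CPM in early and 0.834 CPM in late neutrophils) were in under 2% of neutrophils of either library. They were 1 of 11 B-cell development genes, with a median of 0.14, and 1 of 7 T cell genes, with a median of 0.07.

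Genes on the neutrophil granule and migration list stood on both sides. Lysozyme (lyz) had 69222 CPM in early and 50968 CPM in late neutrophils, a log2 ratio of 0.44. The NADPH oxidase subunit cybb, needed for the oxidative burst, had 93.7 CPM in early and 227 CPM in late neutrophils, a log2 ratio of -1.23. The gene s100a10b had 100 CPM in early and 372 CPM in late neutrophils, a log2 ratio of -1.84. It was also a leading gene of early macrophages, with 3396 CPM there, and is not particular to neutrophils. Among 10 neutrophil granule and migration genes tested that were not gate genes, these last 2 were the only ones at 2-fold, and the list's median was -0.15. The MHC class I gene mhc1uka had 5.50 CPM in early and 27.6 CPM in late neutrophils, a log2 ratio of -1.63. It was the only one at 2-fold of 19 MHC class I and processing genes tested there, whose median was -0.14. It was lower in other types too, with log2 ratios of -1.23 in macrophages, -1.02 in HSPC-gated cells, -0.96 in erythroid cells and -0.70 in NK/ILC cells.

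Within macrophages, which engulf dying cells and recycle the iron of red cells, 63 of 9012 genes tested were at least 2-fold higher with the early label (0.699%) and 99 lower (1.1%), together 1.8%. The gene furthest apart on the high side was hp, haptoglobin by the files' symbol, whose protein binds free haemoglobin in mammals. It had 1314 CPM (1297 to 1332) in early and 106 CPM (100.3 to 113) in late macrophages, a log2 ratio of 3.57. It was found in 86.3% of early and 40.4% of late macrophages, at median depths of 10566 UMIs in early and 14543 UMIs in late cells. In HSPC-gated cells hp had 51.3 CPM in early and 19.7 CPM in late cells, a log2 ratio of 1.19, and in B cells its log2 ratio was 0.83. In erythroid cells it was found in 7.003% of early and 11.6% of late cells, with a log2 ratio of -0.06. Cells in no gate had 509 CPM of hp in the early and 430 CPM in the late library, a log2 ratio of 0.24. In the late library that was above its level in macrophages. The table of gene names gives its identifier (ENSDARG00000095807) the symbol msmbl, so that the name of this feature is uncertain.

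Next stood dicp1.1, a member of a fish family of innate immune receptors with immunoglobulin domains. It had 350 UMIs in early and 4 in late macrophages and was found in 17.7% of early and 0.563% of late cells, against 0.765% of early and 0.212% of late erythroid cells. In neutrophils it had 254 UMIs in early and 46 in late cells, a log2 ratio of 1.09. The gene camkvl had 18.8 CPM in early and 0.963 CPM in late macrophages, a log2 ratio of 2.00, and was found in 16.6% of early and 1.27% of late cells. The ferritin gene fthl28, named for an iron storage protein, had 83.7 CPM in early and 31.7 CPM in late macrophages, a log2 ratio of 1.27. Of 12 iron and metal genes tested there 2 were at least 2-fold higher and 1 lower, tfr1a at -1.16. The list's median was -0.14, against -0.02 over all genes, of which 0.699% were higher and 1.1% lower. The log2 ratio of fthl28 was 0.65 in erythroid cells, 0.64 in neutrophils, 0.62 in B cells and 0.47 in HSPC-gated cells.

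The macrophage identity list differed over all cells but less within the gate. Over all cells, 3 of 19 genes tested were at least 2-fold higher: the growth factor gene grn1 at 1.19, the protease gene ctss2.2 at 1.07 and the transcription factor gene mafbb at 1.04. Beside them, 0.504% of all genes tested over all cells were higher. Within macrophages grn1 had 2571 CPM in early and 1630.1 CPM in late cells, a log2 ratio of 0.66, and none of the 12 genes tested there was at least 2-fold higher. The lowest ratios in macrophages were those of the globins si:ch211-5k11.8 at -3.76 and hbba2 at -3.48. The next lowest rested on 1 cell. The apolipoprotein gene apoc1 had 1 UMI in early and 467 UMIs in late macrophages, but 96.8% of the late UMIs lay in 1 cell, and apoeb had 0 UMIs in early and 208 UMIs in late macrophages, of which 90.9% lay in 1 cell.

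Within B cells, 48 of 5155 genes tested were at least 2-fold higher with the early label (0.931%) and 137 lower (2.66%), together 3.59%. The median of all tested genes lay at -0.14, and the median-ratio scaling gave 72 genes higher and 112 lower. The 3 features furthest apart on the high side, si:dkey-21e2.12, si:dkey-21e2.10 and si:dkey-21e2.13, rested on a few cells. Their UMIs were 424, 398 and 232 in early B cells and 8, 7 and 1 in late ones, and the richest early cell held 76.9%, 75.1% and 68.5% of them.

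Immunoglobulin genes, which code for antibody chains, showed no common direction in B cells. Of the 8 tested on the list, 1 was at least 2-fold higher and 1 lower, with a median of 0.00. The light-chain gene igl3v5 had 674 CPM in early and 1392 CPM in late B cells, a log2 ratio of -1.04, and was found in 54.8% of early and 81.9% of late cells. Its log2 ratio was also low outside B cells, at -2.58 in macrophages, -1.73 in erythroid cells, -1.53 in HSPC-gated cells and -0.98 in neutrophils. A feature named igl4v8 (ENSDARG00000061083) had 35.9 CPM in early and 13.8 CPM in late B cells, a log2 ratio of 1.12, while another with the same symbol (ENSDARG00000079843) had a log2 ratio of -0.09. The metallothionein gene mt2, which binds zinc and copper, had 7.33 CPM in early and 31.8 CPM in late B cells, a log2 ratio of -1.58. None of the 5 B-cell development genes tested that were not gate genes was at 2-fold.

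NK/ILC cells were few, 340 early and 149 late cells, and 41 of 1991 genes tested were at least 2-fold higher with the early label (2.06%) and 51 lower (2.56%), together 4.62%. The median-ratio scaling gave 53 genes higher and 44 lower. Some genes of cell killing and of type 1 immunity were among the higher ones. Others were not: the pore-forming perforin gene prf1.2 had 474 CPM in early and 801 CPM in late NK/ILC cells. Interferon gamma (ifng1), the cytokine that activates macrophages, had 329 CPM (294 to 368) in early and 76.3 CPM (52.9 to 107) in late NK/ILC cells, a log2 ratio of 2.04. It was found in 28.2% of early and 17.4% of late NK/ILC cells, against 0.0768% of early and 0.247% of late B cells, and 33.97% of the early UMIs lay in 1 cell. The median depths were 2260 UMIs in early and 2598 UMIs in late NK/ILC cells, and 2395.5 UMIs in early and 3436.5 UMIs in late B cells.

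Another perforin gene, prf1.9, had 201 CPM in early and 89.8 CPM in late NK/ILC cells, a log2 ratio of 1.12. The granzyme gene gzma, a protease of killer cells, had 119 CPM in early and 56.1 CPM in late NK/ILC cells, a log2 ratio of 1.02. With ifng1, prf1.9 and gzma were the 3 genes at 2-fold among the 7 tested on the list of NK and cytotoxic genes. Beside them, 2.06% of all genes tested in these cells were higher. The list's median was 0.68 against -0.03 over all genes tested, with 5 members above 0 and the perforin gene prf1.1 lowest at -0.32. The perforin gene prf1.2, lower in early cells as given above, was not on this list and has no part in its counts or median. The MHC class II chaperone gene cd74b had 615 CPM in early and 294 CPM in late NK/ILC cells, a log2 ratio of 1.05. The hsp70 genes summed to 317 CPM in early and 76.3 CPM in late NK/ILC cells, and all 3 tested were at least 2-fold higher.

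In T cells, of which there were 112 early and 101 late cells, 11 of 879 genes tested were at least 2-fold higher with the early label (1.25%) and 32 lower (3.64%), together 4.89%. None of the 9 T cell genes tested that were not gate genes was at 2-fold. Their range ran from 0.29 for ccr9a to -0.79 for il7r, the receptor of a survival cytokine of T cells, which had 86.0 CPM in early and 152 CPM in late T cells.

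Thrombocytes numbered 56 early and 45 late cells, too few for a comparison within the type.

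Few genes differed the same way in every type. Of 834 genes tested in all 7 types, 1 was at least 2-fold higher (0.12%) and 5 at least 2-fold lower (0.6%) with the early label in each, together 0.719%. Among the 5 types with at least 200 cells in each library it was 1 higher (0.0204%) and 12 lower (0.245%) of 4892 genes, together 0.266%. Types of 1 library share its fish, sort and run and are not replicates.

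The higher gene was rpl26, which codes for a protein of the large ribosomal subunit. It had 492 CPM in early and 133 CPM in late HSPC-gated cells, 209 CPM in early and 36.8 CPM in late erythroid cells, and 162 CPM in early and 47.5 CPM in late neutrophils. Its log2 ratio was 1.67 to 2.54 in the 7 types and 2.23 over all cells, and a UMI of it was found in 41.6% of early and 20.7% of late cells. No other of the 92 genes tested on the list of ribosomal protein genes was at 2-fold over all cells. The list took every symbol that starts with rpl or rps. It therefore also held some kinase genes, such as rps6ka3a, its lowest member over all cells at -0.38. The list's median was 0.45 over all cells, 0.45 in erythroid cells, 0.29 in NK/ILC cells and 0.27 in T cells. It was 0.13 in B cells, 0.11 in HSPC-gated cells, 0.06 in macrophages and -0.09 in neutrophils. The genes of this list together took 33.0% of all early and 23.6% of all late UMIs. In erythroid cells they took 23.6% of early and 16.9% of late UMIs, and in neutrophils 14.9% of early and 15.9% of late UMIs.

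The 5 lower genes were the globin si:ch211-5k11.8, zmp:0000001323, si:dkey-28k24.2, zgc:158463 and CT027638.1. The feature zgc:158463, which RefSeq lists as ribosomal RNA, had 1472 CPM in early and 4553 CPM in late cells, a log2 ratio of -1.63. The feature CT027638.1 had 1126 CPM in early and 3239.6 CPM in late cells, a log2 ratio of -1.52. The feature si:dkey-28k24.2 was highest in T cells, with 1312 CPM in early and 3905 CPM in late T cells, a log2 ratio of -1.57, and had a log2 ratio of -1.04 over all cells. It was found in 89.3% of early and 99.0% of late T cells, and in 13.4% of early and 35.3% of late neutrophils. Ribosomal RNA lacks a poly(A) tail as a rule, so its level in libraries of polyadenylated RNA does not stand for its level in the cell.

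The other 7 lower genes of the 5 large types held 1 feature named hist1h4l, si:zfos-2330d3.7 (named mfap4.8 in the table of gene names), BX323593.1, si:ch211-207c6.2, si:ch211-214b16.4, si:dkey-263j23.1 and ly97.2. The feature si:ch211-207c6.2 was highest in erythroid cells, with 420 CPM in early and 860.4 CPM in late cells, and had 6.06 CPM in early and 55.4 CPM in late HSPC-gated cells, a pattern like that of the globins. The feature BX323593.1 was highest in neutrophils, with 16.3 CPM in early and 98.0 CPM in late cells, a log2 ratio of -2.28.

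**Figure D4:**
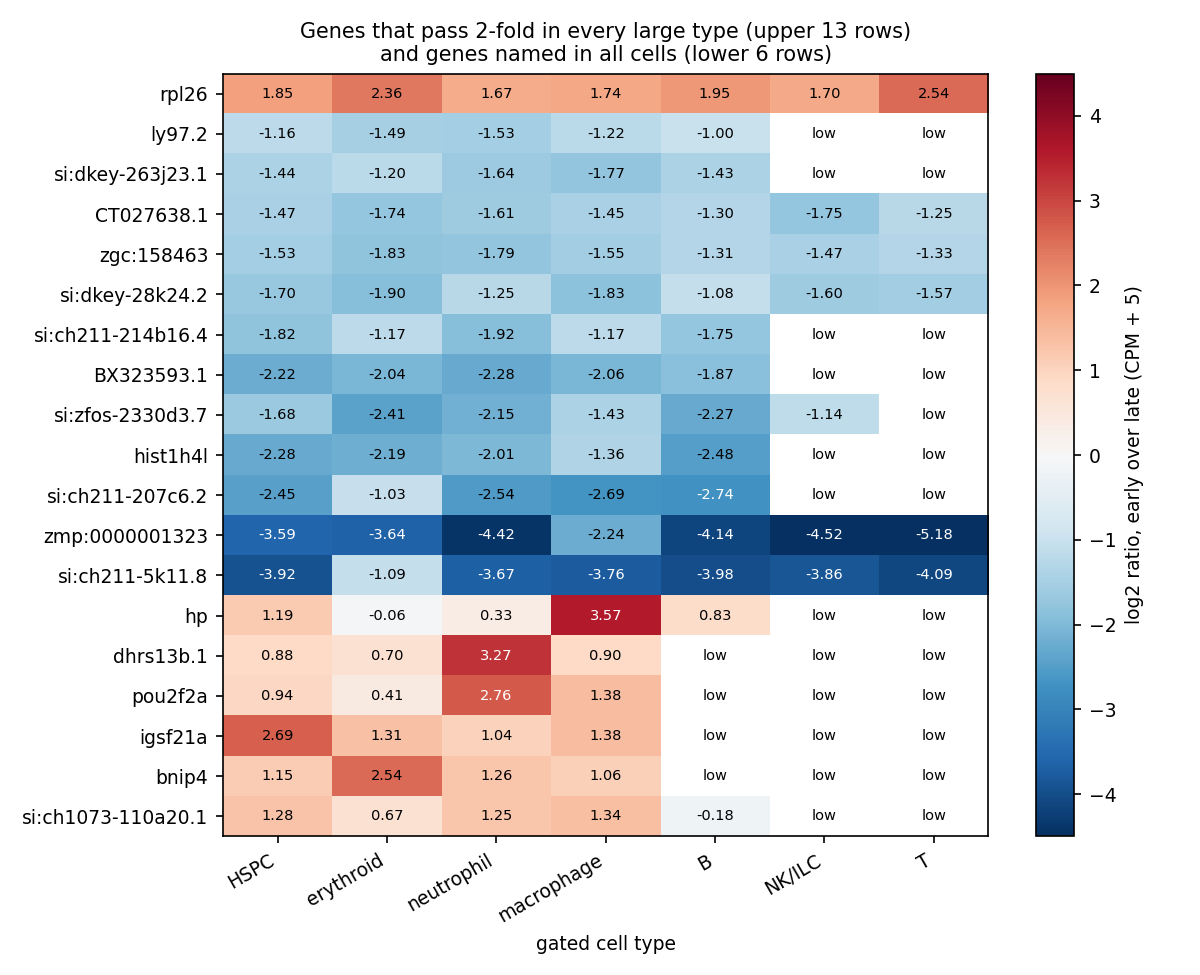
Heat map of the log2 ratio of early over late CPM + 5 for named genes (rows) within each gated type (columns). Values above 0 are higher with the early label, and entries with too few UMIs to be tested are marked low. The values of rpl26 lie between 1.67 and 2.54 in the 7 types, whereas hp lies at 3.57 in macrophages, 1.19 in HSPC-gated cells and -0.06 in erythroid cells.

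Histone genes of the hist1 group, which package newly copied DNA, were lower with the early label. Of the 42 tested over all cells, 11 were at least 2-fold lower and 0 higher, with a median of -0.54. Of all genes tested 0.549% were lower and 0.504% higher. The hist1 genes summed to 192 CPM in early and 608 CPM in late cells. The copy hist1h4l (ENSDARG00000112954), coding for histone H4, had 13.5 CPM in early and 83.9 CPM in late cells, a log2 ratio of -2.26. Within erythroid cells the group summed to 348 CPM in early and 1039 CPM in late cells. There 12 of 40 tested were at least 2-fold lower, beside 3.32% of all genes tested in these cells. Most histone messages lack a poly(A) tail, and the copies are nearly identical, so that both the capture and the division of reads among copies are uncertain. This grouping was made after the values were seen. The list of cell cycle genes had a median of -0.06 over all cells, against 0.02 over all genes tested. In erythroid cells its median was -0.31, against -0.13 over all genes, and 5 of the 27 tested were above 0. No member was at least 2-fold lower in either, and a link to the histone difference was not tested.

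Among the remaining lists, few members stood at 2-fold over all cells. Interferon-stimulated genes, the antiviral response set, had 0 of 13 tested at 2-fold and a median of -0.02, with 0 at 2-fold in each of the 7 types. MHC class II genes had 0 of 8 at 2-fold and a median of 0.20. Immunoglobulin and plasma cell genes had 0 of 10 at 2-fold and a median of 0.23. T cell genes had 0 of 21 at 2-fold and a median of 0.01. Inflammatory genes had 2 of 18 at least 2-fold higher, the chemokine gene ccl34a.4 with 141 CPM in early and 49.0 CPM in late cells, and tnfb with 45.3 CPM in early and 17.8 CPM in late cells. Their median was 0.03, and 0.504% of all genes tested were higher. The list of adult globins, with a median of -0.96, and that of the haem and red cell programme, with a median of -0.75 and epb41b as its lowest member at -1.30, stood beside the smaller share of erythroid cells in the early library.

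**Figure D5:**
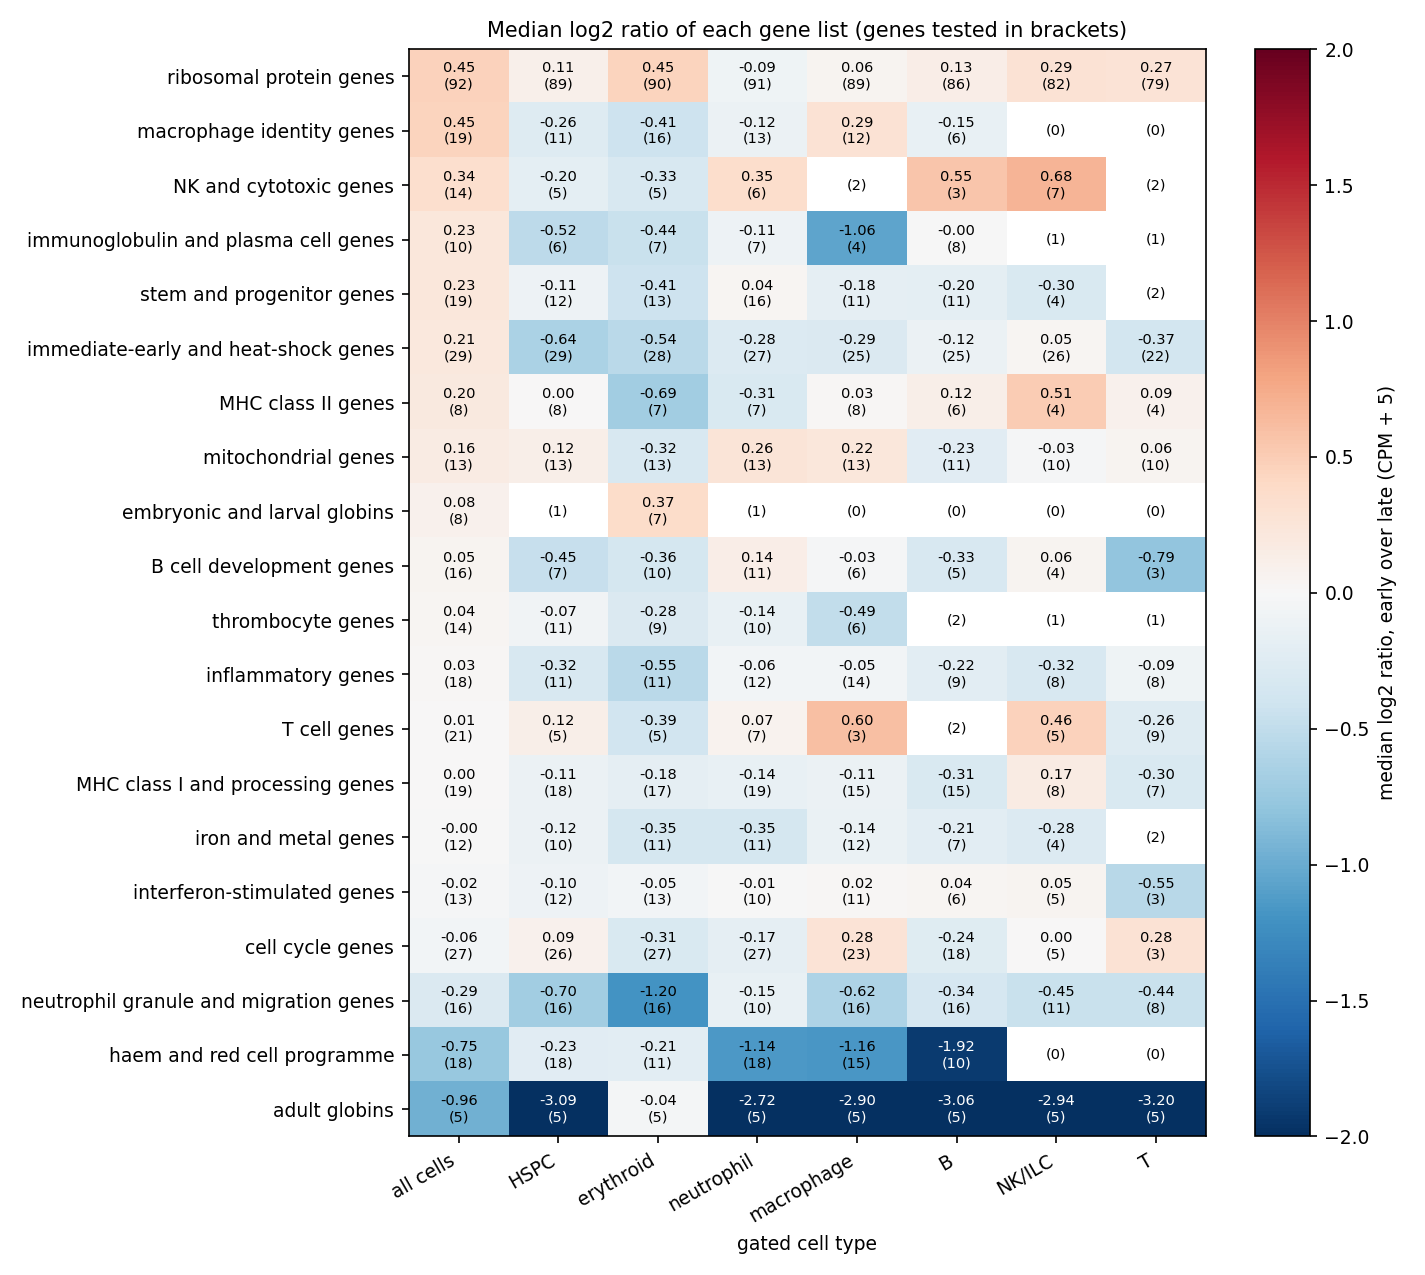
Heat map of the median log2 ratio of early over late CPM + 5 of each gene list (rows), over all cells and within the gated types (columns). Over all cells the adult globins lie at -0.96 and the list of ribosomal protein genes at 0.45. The median of all genes tested over all cells, 0.02, is not drawn.

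The same contrast of labels could be set beside the other adult tissues of the series, the intestine (14176 cells), the thymus (6085 cells) and the tessellated lymphoid network, a lymphoid organ (TLN; 47099 cells), each again with 1 library per label. The labels do not say whether the tissues came from the same fish. Of the 78 genes higher in early kidney marrow, 75 were tested in the thymus and 16 of them were at least 2-fold higher there too, or 21.3%, beside 2.08% of all genes tested in the thymus. In the intestine it was 12 of 75, or 16%, beside 0.949%, and in the TLN 9 of 63, or 14.3%, beside 0.81%. Of these higher genes 5 went at least 2-fold the opposite way in the thymus, 1 in the intestine and 1 in the TLN. Of the 85 genes lower in early kidney marrow, the shares lower elsewhere were 24 of 71 in the intestine (33.8%, beside 3.55%), 12 of 50 in the TLN (24%, beside 4.21%) and 5 of 72 in the thymus (6.94%, beside 1.67%). Of these lower genes 7 went at least 2-fold the opposite way in the thymus, 5 in the intestine and 2 in the TLN.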

How the data were processed

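The deposited matrices hold raw UMI counts per gene and barcode, made with Cell Ranger 9.0.0 per the file headers; the submitters' processing notes list Cell Ranger 8.0.1 and the build GRCz11. All 27758 features were kept, and the 549 symbols found on several features were kept apart by identifier.

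Counts were summed over all cells or over the cells of a gate, scaled to CPM, and compared as log2 ratios, early over late, of CPM + 5. Genes were tested against the fold when the higher library had at least 50 UMIs, and counted at 2-fold or more. A gate needed 2 different gate genes and a share of the cell's UMIs at or above the larger of the mean share over all cells and 25% of the median share among cells with 3 or more of them. Gate thresholds were set after the data were seen, and gate genes were left out of their own type's results. Doublets were not removed, but the cells in several gates were set aside, and 3351 early and 2508 late cells with the highest doublet scores (Scrublet method, re-implemented) were left out as an alternative.

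Members and gene lists were chosen with earlier results of these data known. Named genes were the 8 highest and 8 lowest over all cells (at least 500 UMIs), the 3 highest and 3 lowest per type with at least 200 cells in each library (at least 100 UMIs), the genes past the fold in every type, and each list's extreme or defining members. The script was tested on simulated counts with 200 genes changed. These were drawn with Poisson error alone from a profile shared by both libraries. The run therefore checks the code and cannot show how often libraries differ without a difference of label. With all cells it recovered 49% of the changed genes and made 0 calls among the 15009 others, and with HSPC-gated cells 95% and 0 among 10261. It made 2 calls among 664 others in T cells and 2 among 1907 in NK/ILC cells. Gene names came from a table of names, which had a row for 30 of 33 named identifiers, and from RefSeq (GRCz12tu; synonyms only). Scripts ran under Python 3.11.15 (numpy 2.4.6; scipy 1.17.1; pandas 2.3.3; scikit-learn 1.9.0), and figures were drawn with matplotlib 3.10.9.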

Additional observations from a re-analysis of the deposited data

Results flagged for a closer look

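Some genes of the kidney marrow stood on the other side in another adult tissue, each tissue with 1 library per label, and these differences were not tested. The feature zmp:0000001323, with a log2 ratio of -2.87 in kidney marrow, had 2.401 in the intestine and 4.02 in the TLN. The globin si:ch211-5k11.8, with -1.98 in kidney marrow, had 3.45 in the intestine and 3.33 in the thymus. The feature BX323593.1, with -2.26 in kidney marrow, had 1.76 in the thymus.

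Features of added sequences other than mCherry also had UMIs. EYFP had 152 UMIs in the early and 132 in the late kidney marrow library, Cre had 18 in the early and 15 in the late library, and mCerulean had 16 in the early and 14 in the late library. Each is above 3 UMIs, the limit that a count of 0 allows.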

How the results depend on the processing

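No paired analysis was possible because each label had 1 library and the labels give no replicate numbers.

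Differences of shares (points, early minus late) moved as follows. With 1 more gate gene they were 1.26 for HSPC-gated cells, -1.74 for neutrophils, 2.18 for macrophages, 0.313 for NK/ILC cells, 0.0982 for thrombocytes and, turned round, -0.141 for B cells. Thinned to 1000 UMIs they were 0.385 for HSPC-gated cells, -10.5 for erythroid cells, 1.35 for macrophages and 0.207 for thrombocytes. With at least 1000 UMIs and at most 10% mitochondrial UMIs they were 3.62, -9.45, -3.76 and 3.08 for HSPC-gated, erythroid, neutrophil and macrophage cells. Of gated cells without erythroid cells they were 3.59, -8.57 and 3.08 for HSPC-gated cells, neutrophils and macrophages. Without the cells of highest doublet scores neutrophils stood at 0.737. Of 2 settings chosen after seeing the data, thinning to 500 UMIs gave 0.167 for HSPC-gated cells, -6.64 for erythroid cells, 0.974 for neutrophils, 0.539 for macrophages, 0.338 for NK/ILC cells and 0.198 for B cells, and giving cells in several gates to one gave -10.6 for erythroid cells and -1.30 for neutrophils.

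Counts at 2-fold, in the order all cells, HSPC-gated, erythroid, neutrophil, macrophage and B cells, were 503, 468, 1106, 735, 409 and 296 with CPM + 1, and 38, 46, 107, 100, 48 and 67 with CPM + 20. At 1.5-fold they were 912, 856, 1371, 1133, 742 and 778, with 161 in T cells, 342 in NK/ILC cells and 11 in every type. With no filter they were 2213 in T cells, 1271 in NK/ILC cells and 11 in every type. At 200 UMIs or more they were 13 in T, 23 in NK/ILC and 67 in B cells. Without the cells of highest doublet scores they were 624 in erythroid cells and 10 in every type.

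Of 20 lists, 2 had a median of at least 0.5 in size, 4 with CPM + 1 and 0 with the types weighted equally, which turned the medians of MHC class II genes to -0.031 and of immediate-early and heat-shock genes to -0.13. The causes were not tested. All 46 named results kept their direction under the 6 settings run, and 40 stayed past 2-fold with CPM + 20. They had been picked as the extremes of these same counts, so that a kept direction is no independent support. In size, 122 of the alternative values moved outside the interval of counting error and 154 stayed within it. Depth limits rare types: in T cells 879 genes could be tested.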
